A study of Saccharomyces cerevisiae with 6 samples.

Results

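The experiment compared gene expression between a fun30 deletion strain and its wild type in the budding yeast Saccharomyces cerevisiae. It comprises 4 of the 6 arrays of the series, 2 of the deletion (labelled Fun30KO) and 2 of the wild type, chosen by their titles. The other 2 arrays measure plasmid and cassette integration and were not used here. Both genotypes were grown to log phase in synthetic complete medium. The wild type is the laboratory strain BY4741, and the labels call the fun30 mutant isogenic with it. Total RNA was labelled with biotin and hybridised to an Affymetrix array, on which each gene is read by a probe set. Of 5498 probe sets that name 1 S. cerevisiae gene, 5450 are described, for 5401 genes. The FUN30 probe set and the 47 probe sets of a run of neighbouring genes on chromosome IV, from GCD6 (YDR211W) to EXG2 (YDR261C), are set aside. The labels name a single strain of each genotype, so the loss of Fun30 cannot be told apart from any other difference between the strains. They do not say whether the arrays of a genotype came from separate cultures, so a p-value here measures no more than how these arrays spread.

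Fun30 belongs to the Snf2 family of enzymes that remodel nucleosomes with the energy of ATP. It slides and exchanges nucleosomes, is known to help maintain silent chromatin near telomeres, at the silent mating-type loci and in the ribosomal DNA, and promotes the resection of broken DNA ends, the subject of the study. The array comparison asks which genes are expressed differently when it is missing.

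The labelled genotypes were checked first. FUN30 had log2 signals of 3.37 and 3.55 in the deletion and of 9.63 and 9.40 in the wild type. Genes that define the a mating type were bright on all 4 arrays, with STE2, the alpha-factor receptor, at 13.04 to 13.38 and MFA1, an a-factor gene, at 13.07 to 13.26. The alpha-factor genes MF(ALPHA)1 and MF(ALPHA)2 lay at 4.26 to 6.33, around the background level of 5.24 (the 95th percentile of probe sets annotated outside the yeast gene table), and the alpha-agglutinin gene SAG1 at 9.10 to 9.41. BY4741 is known to lack LEU2, URA3 and MET17 and to carry a partial deletion of HIS3. LEU2 lay at 5.04 to 5.14 and URA3 at 4.07 to 4.22, below background everywhere, and HIS3 was bright everywhere, at 12.68 to 13.09. MET17 went against the label: its signals were 5.49 and 5.47 in the wild type but 13.05 and 12.94 in the deletion. LYS2, which is intact in BY4741, lay at 11.76 to 11.93.

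The arrays of a genotype resembled each other more than they did the other genotype. The log2 difference between arrays had an SD over probe sets of 0.14 within the deletion and 0.18 within the wild type, against 0.21 to 0.35 between genotypes. Wild type replicate 1 lay farther from each deletion array than wild type replicate 2 did (SD 0.29 and 0.35 against 0.21 and 0.27). The results below are given with and without it where that changes them.

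Outside the run, 36 probe sets rose in the deletion and 70 fell (limma, adjusted p under 0.05 over all 5498 probe sets). These are 0.661% and 1.28% of the 5450, or 1.94% together. On all 106 the deletion arrays lay on 1 side of the wild-type arrays, which was also true, without a test, of 27.9% of all probe sets upward and 30.3% downward. The median difference was −0.78 (log2) among the falls and 0.60 among the rises, and 16 falls and 5 rises reached 2-fold. The counts dropped to 15 rises and 22 falls without wild type replicate 1, and 14 rises and 21 falls of the original calls were kept. They grew to 155 and 207 (2.84% and 3.8%) without wild type replicate 2, and to 73 and 306 (1.34% and 5.61%) without fun30 deletion replicate 1.

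**Figure D1:**
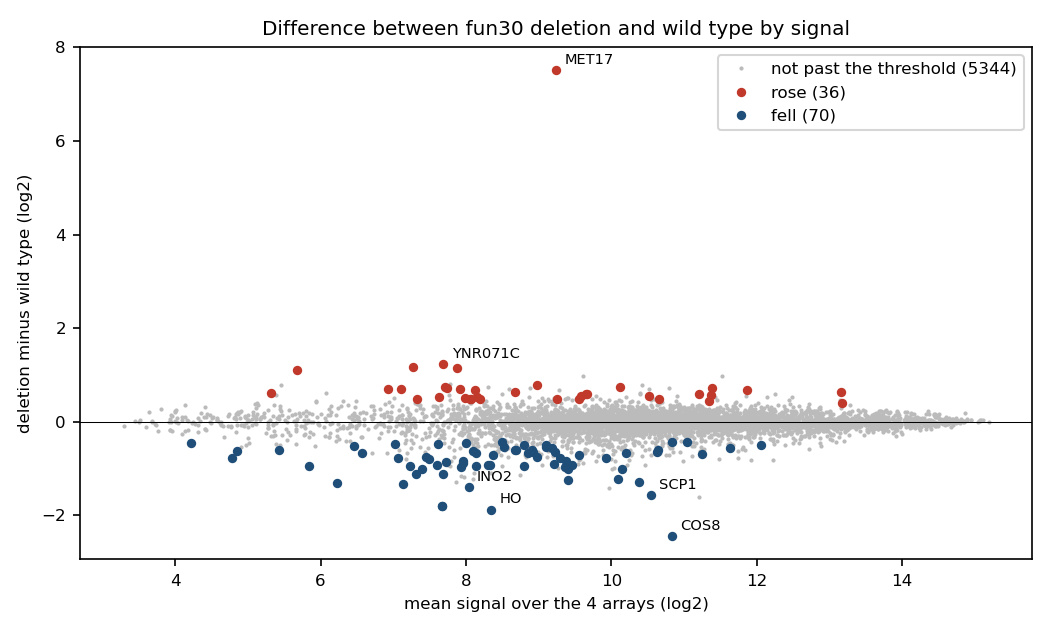
Difference between deletion and wild type (log2) against the mean signal of each of the 5450 probe sets over the 4 arrays (log2). Red points rose (36), blue points fell (70) and grey points did not pass the threshold; MET17 stands alone at 7.51, and most calls lie among the dimmer probe sets.

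Calls were most frequent among dim probe sets. With the probe sets split into 4 equal bins of mean signal, the lowest bin, up to 9.44 (log2), held 22 that rose and 54 that fell of 1363. In the highest bin, from 11.84 upward, 3 rose and 1 fell of 1363. The brighter probe sets also varied less, with an SD of the difference between genotypes of 0.39 in the lowest bin and 0.14 in the highest. In 6 of the 106 calls the lower genotype lay below background, so their size is not measured in full. In 3 of these, the falls of VEL1, BSC1 and YGL006W-A, both genotypes lay below it, and expression itself is not shown.

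The 16 falls that reached 2-fold are grouped here by position or known role, a grouping made after the values were seen. At chromosome ends they were the COS family genes COS8 and COS12, the arsenic resistance genes ARR2 and ARR3, IMD2, and the uncharacterised ORFs YIR042C and YER187W. The probe set of IMD2 may also bind related genes. In the lists of MBF and SBF targets and of the pheromone response they were HO, PCL1, RNR1 and FAR1. The rest were SCP1, INO2, and the RNA genes DUS1, RRP12 and UTP13. COS8, whose family sorts membrane proteins to the vacuole, had signals of 9.63 and 9.60 in the deletion and a mean of 12.06 in the wild type, and its difference was −2.44 ± 0.07 (SE, adjusted p = 0.000455). The genotypes were much farther apart than the arrays of either. SCP1, an actin-bundling protein related to calponin, had signals of 9.76 and 9.75 against 11.34 and 11.33, the closest agreement between replicates of the 16 (difference −1.58 ± 0.06 SE, adjusted p = 0.00143). INO2, which activates phospholipid synthesis genes together with INO4, had 7.40 and 7.27 against 8.68 and 8.79 (−1.40 ± 0.08 SE, adjusted p = 0.00588). Of the genes that Ino2 activates, INO1, for inositol synthesis, differed by −0.036 and CHO1, for phosphatidylserine synthesis, by −0.071, and neither passed (adjusted p = 0.780 and 0.535). INO2 was the 1 gene of 19 in phospholipid synthesis that passed, where 1.94% of all probe sets did. The median difference of that list was −0.082.

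The rises that reached 2-fold were MET17, YNR071C, DIT1, SPR3 and GAS4. YNR071C, a putative aldose 1-epimerase gene near a chromosome end, had signals of 8.30 on both deletion arrays and of 6.95 and 7.21 in the wild type (difference 1.23 ± 0.10 SE, adjusted p = 0.00768). Smaller rises that were kept in all 4 fits with 1 array left out included PRM9 (0.79), GTO3 (0.74), HMX1 (0.73), CRG1 (0.73), HUG1 (0.72), PHO89 (0.69), MIP6 (0.69), TIR1 (0.59) and PRM5 (0.59). GTO3 encodes a glutathione transferase, CRG1 a methyltransferase of cantharidin resistance and MIP6 an RNA-binding protein. HUG1, an inhibitor of ribonucleotide reductase, had 8.16 and 8.04 in the deletion against 7.38 on both wild-type arrays. YKR075C, an ORF without a known role, rose by 0.68 and lost its call without wild type replicate 1 (adjusted p = 0.0576).

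**Figure D2:**
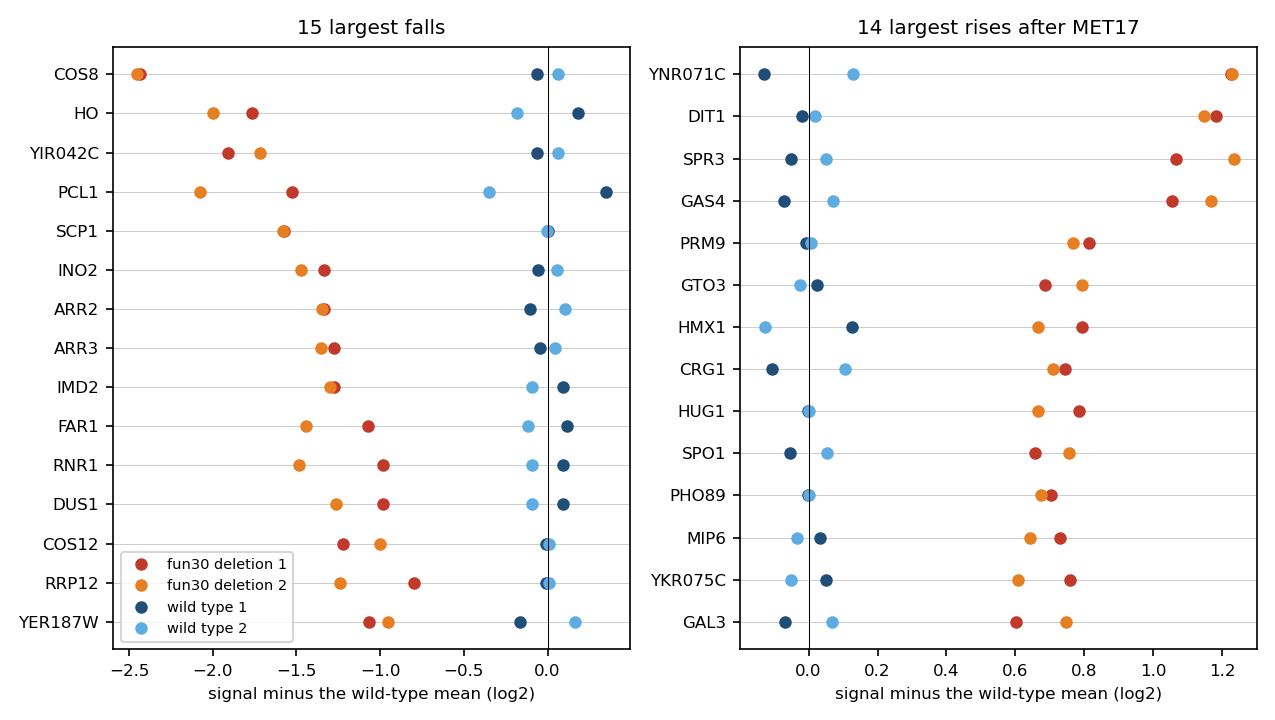
Signal of each array minus the wild-type mean (log2) for the 15 largest falls (left) and the 14 largest rises after MET17 (right), which is off this scale. Red and orange points are the deletion arrays and blue points the wild-type arrays; in every row the genotypes do not overlap, and PCL1 and RNR1 have wide gaps between arrays of a genotype.

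A larger share of genes was called at the ends of chromosomes than further in, and mostly as falls. Among the 10 outermost measured genes of each arm, 20 of 332 probe sets fell (6.02%) and 6 rose (1.81%), where 1.28% of all probe sets fell and 0.661% rose. Further in than these, 50 of 5118 fell (0.977%) and 30 rose. Between the 11th and 30th measured gene from an end the direction was not downward, with 8 rises and 4 falls among 646. Of the 20 falls, 9 were on probe sets with the suffix _s_at or _x_at, which marks probes that may also bind related genes, as in the repeated families of these regions. With such probe sets left out, 11 of 275 outermost probe sets fell (4.00%) against 0.991% further in. The size of the excess of falls depended on the arrays. Falls were fewest in both positions without wild type replicate 1, and their share was still larger among the outermost genes. The gap between the positions was narrowest in the fit without fun30 deletion replicate 1. In the latter fit it was 6.91% against 5.51% with the _s_at and _x_at probe sets left out as well. The shares were 7.53% against 1.47% without fun30 deletion replicate 2, and 7.83% against 3.54% without wild type replicate 2. The median difference over the 332 was −0.017. They were also dimmer, with a median signal of 9.10 against 10.67 beyond the 30th gene, and the part of signal level in these shares was not tested.

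**Figure D3:**
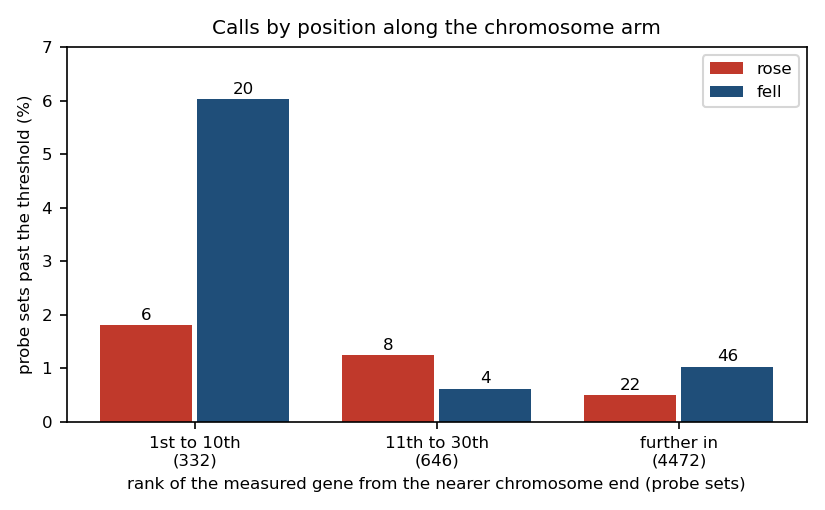
Share of probe sets past the threshold (%) by the rank of the measured gene from the nearer chromosome end, red for rises and blue for falls, with the number of calls above each bar. The 10 outermost genes of each arm have the highest share of falls, 20 of 332 probe sets.

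Several of the outermost falls were neighbours. ARR2, an arsenate reductase, and ARR3, an arsenite exporter, are the last measured genes of a chromosome XVI arm. ARR3 had signals of 5.61 and 5.53 in the deletion and of 6.85 and 6.93 in the wild type, and ARR2 had 6.47 and 6.46 against 7.70 and 7.92. Their activator gene ARR1, which lies beside them, differed by −0.22 and did not pass (adjusted p = 0.140). YBL113C and YBL112C, the first measured ORFs of chromosome II, fell by 0.50 and 0.57, and YFL065C and YFL064C on chromosome VI fell by 0.85 and 0.53. All 4 of these ORFs were read by probe sets that can cross-hybridise. Inside an arm, INO2 and its neighbour YDR124W both fell, the latter by 0.62. Read by a single probe set per gene, these were the only pairs of neighbouring measured genes, 4 of 5383, in which both were called. All 4 pairs fell together. This count can miss pairs in which a gene has several probe sets. PRM9 and MST28, neighbours by rank near an end of chromosome I, both rose (0.79 and 0.47), MST28 on only a part of its probe sets. Leaving out wild type replicate 1 lost the calls of YBL113C (adjusted p = 0.0840), YFL064C (adjusted p = 0.0642) and YDR124W (adjusted p = 0.0576), and leaving out fun30 deletion replicate 1 that of YBL113C (adjusted p = 0.0507).

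Other outermost genes that fell encode enzymes and transporters. They include IMD2, an inosine monophosphate dehydrogenase gene, GEX1, a glutathione exchanger, AIF1, a mitochondrial cell death effector, AAD3, a putative aryl-alcohol dehydrogenase, ADH7, an alcohol dehydrogenase, and PHO11, an acid phosphatase. The calls of IMD2, GEX1, AAD3 and PHO11 were on probe sets that can cross-hybridise, so their signals may include related genes. IMD2 had signals of 9.75 and 9.73 in the deletion and of 11.12 and 10.94 in the wild type. Its relatives inside chromosome arms, IMD3 and IMD4, differed by −0.18 and −0.28 and did not pass (adjusted p = 0.322 and 0.253). In the COS family, COS12 had 6.65 and 6.87 against 7.86 and 7.88, while COS2, COS4, COS6, COS7, COS9 and COS10 differed by −0.30 to 0.11 and did not pass. The outermost genes that rose were YNR071C, PRM9, CRG1, PHO89, SOR2, a sorbitol dehydrogenase, and MST28, a membrane protein that binds coat proteins. The probe set of SOR2 can cross-hybridise as well. AAD3 has 2 further probe sets (−0.31 and −0.52) and MST28 has 1 (0.16) that did not pass. The calls of AAD3, ADH7, PHO11, SOR2 and MST28 were lost without wild type replicate 1, with adjusted p from 0.0643 to 0.110. Calls were also lost without fun30 deletion replicate 2 for ADH7 (adjusted p = 0.0914) and MST28 (adjusted p = 0.0554), without wild type replicate 2 for PHO11 (adjusted p = 0.0561) and MST28 (adjusted p = 0.0517), and without fun30 deletion replicate 1 for MST28 (adjusted p = 0.0628).

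By chromosome, between 1.27% (chromosome II) and 5.56% (chromosome I, 5 of 90 probe sets) of the probe sets outside the run were called. The median difference of a chromosome lay between −0.033 (chromosome XIV) and 0.029 (chromosome I). Over the 4 pairings of arrays between genotypes the lowest such median was −0.0436 (chromosome XIV) and the highest 0.0378 (chromosome I).

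Genes of processes were described with 80 lists, which hold 1667 measured genes outside the run. Of the 106 called genes, 42 belong to a list, 17 that rose and 25 that fell, and 59 lists held no called gene. The median difference lay within 0.1 of 0 in 48 lists, where that of all 5401 genes was −0.0050.

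Genes that make ribosomes showed the lowest medians of the lists. The small subunit processome folds and cuts the pre-rRNA of the small subunit. Of its 44 measured genes, 5 fell and 0 rose, and in 43 the mean was lower without Fun30, the median difference being −0.44. Among 55 genes of large subunit assembly, 2 fell and 0 rose, 53 had a lower mean and the median was −0.50. The shares that fell, 5 of 44 and 2 of 55, stand beside 1.28% of all probe sets. At an unadjusted p under 0.05 (limma), 28 of 44 and 35 of 55 were lower and 0 were higher, where 12.6% of all probe sets were lower and 8.99% higher. PWP2, a scaffold protein of the processome, had signals of 8.63 and 8.57 in the deletion and of 9.40 and 9.31 in the wild type, and UTP21 of the same subcomplex had 8.95 and 8.96 against 9.97 and 9.63. Both genes kept their calls whichever array was left out. UTP4 had 9.03 and 8.73 against 9.93 and 9.76, UTP13 had 9.10 and 8.70 against 9.94 and 9.87, and the GTPase gene BMS1 fell by 0.44. In the second list the fallen genes were MAK16, with 7.82 and 7.51 against 8.70 and 8.52, and ERB1, with 9.66 and 9.42 against 10.40 and 10.24. With wild type replicate 1 left out the counts were 2 of 44 and 0 of 55, and the calls of UTP4, UTP13, BMS1, MAK16 and ERB1 were lost (adjusted p from 0.0945 to 0.124), that of BMS1 also without fun30 deletion replicate 2 (adjusted p = 0.132).

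The size of this difference depended on which arrays were paired. Over the 4 pairings the median of large subunit assembly ran from −0.78 to −0.18, and that of the processome from −0.70 to −0.17. Within genotypes, deletion replicate 1 lay 0.32 and 0.29 above replicate 2, and wild type replicate 1 lay 0.25 and 0.25 above replicate 2. The order of the arrays was the same in both lists, with wild type replicate 1 highest and deletion replicate 2 lowest. With fun30 deletion replicate 1 left out, 37 of 55 and 29 of 44 genes fell, where 5.61% of all probe sets did. The counts were 9 and 9 without fun30 deletion replicate 2 (1.83% of all), and 10 and 8 without wild type replicate 2 (3.8% of all).

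**Figure D4:**
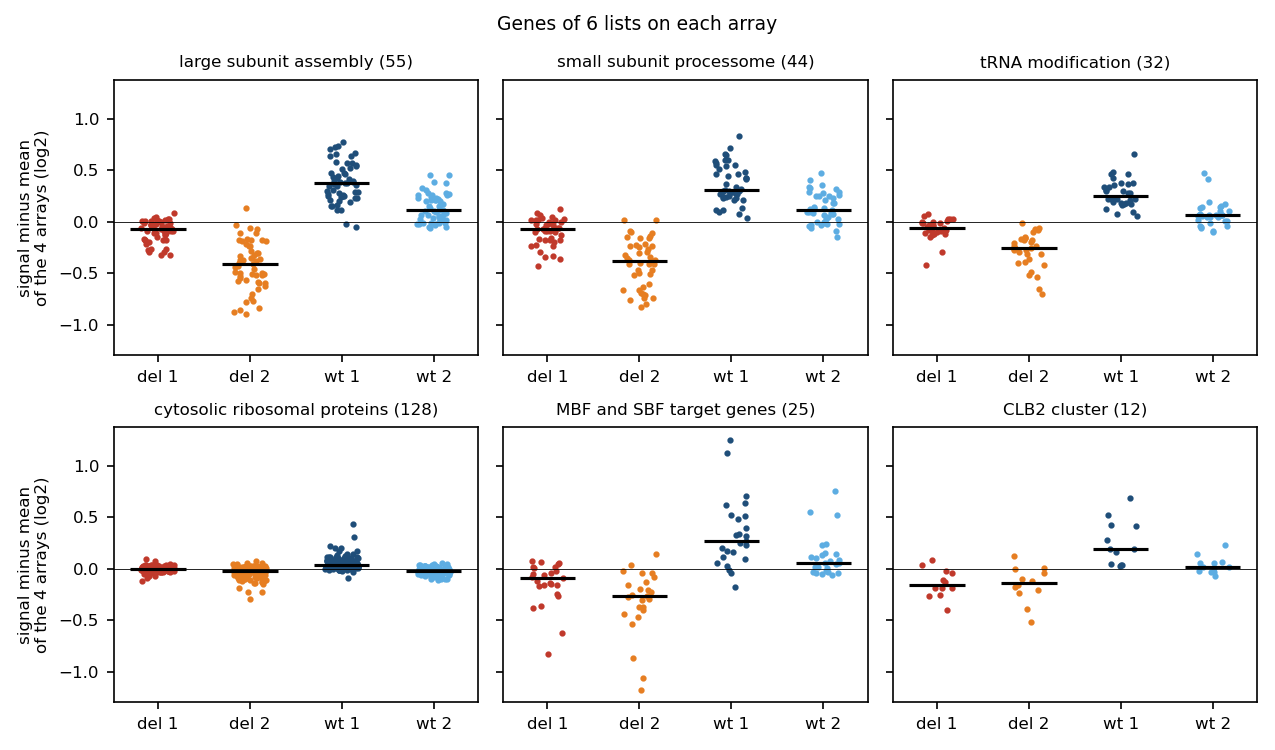
Signal of each gene minus its mean over the 4 arrays (log2) in 6 lists, with the number of genes in brackets; points are genes and black bars the list median on each array. The ribosome assembly and tRNA modification genes are highest on wild type 1 and lowest on deletion 2, the 128 ribosomal protein genes stay near 0, and the 12 genes of the CLB2 cluster are highest on wild type 1.

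Other steps of ribosome and RNA production had list medians nearer 0. In RNA polymerase I and its factors 1 of 17 genes fell, RRN3, which recruits the polymerase to ribosomal DNA, with 8.15 and 7.90 in the deletion against 8.79 and 8.67 (list median −0.31). Of 32 genes of tRNA modification, 30 had a lower mean (median −0.30) and 2 fell, where 1.28% of all probe sets did. The 2 were DUS1, a dihydrouridine synthase (7.27 and 6.99 against 8.34 and 8.16), and ELP2, a subunit of Elongator (a mean of 8.91 against 9.67 and 9.72). Over the 4 pairings of arrays the median of tRNA modification ran from −0.52 to −0.11. That of RNA polymerase I and its factors ran from −0.41 to −0.024. The calls of RRN3, DUS1 and ELP2 were lost without wild type replicate 1, with adjusted p of 0.138, 0.0579 and 0.0579. No gene passed among RNA polymerase III and its factors (19, median −0.15), the RNA exosome (14, −0.15), H/ACA snoRNP proteins (4, −0.33), translation initiation (23, −0.16), aminoacyl-tRNA synthetases (19, −0.11) or translation elongation and termination (11, −0.091). None of 128 cytosolic ribosomal protein genes passed in limma, with a median of −0.023 and 2 lower at an unadjusted p under 0.05, against 12.6% of all probe sets. None of 71 mitochondrial ones passed either, with a median of 0.00043 and 1 lower at that level.

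Outside these lists, and named after their values were seen, several further genes of RNA biology fell. They were RRP12, needed for export of ribosomal subunits, KRE33, an rRNA acetyltransferase, BMT6, an rRNA methyltransferase, TRF5, a poly(A) polymerase of nuclear RNA surveillance, RTT10, a partner of tRNA methylation, and TOD6, a repressor of ribosome biogenesis genes. RRP12 had 9.86 and 9.42 in the deletion against 10.65 and 10.66 in the wild type, and TOD6 had 8.03 and 7.70 against 8.86 and 8.74. RTT10 kept its call whichever array was left out (9.23 and 9.16 against 9.98 and 9.84). The others were lost without wild type replicate 1, with adjusted p from 0.0643 to 0.130. RRP12 was not called without wild type replicate 2 either (adjusted p = 0.0545).

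**Figure D5:**
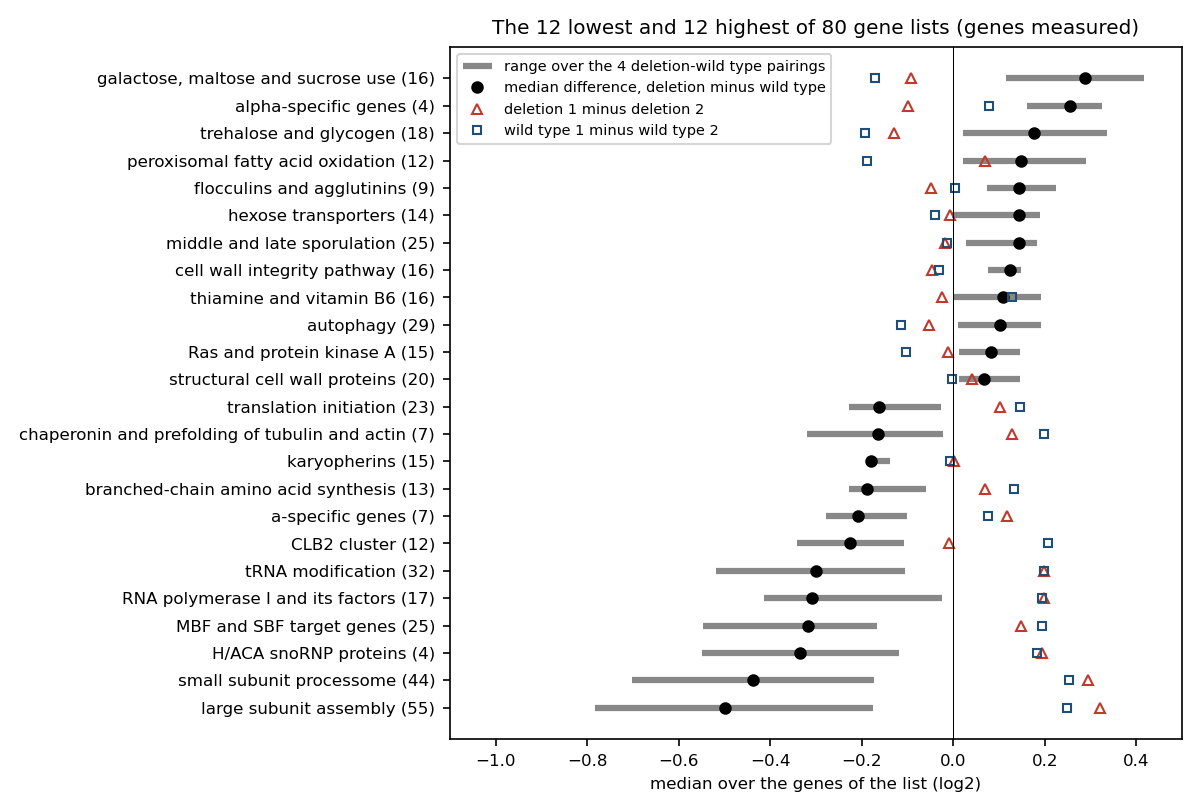
Median over the genes of a list (log2) for the 12 lowest and 12 highest of 80 lists, with the number of genes measured. Black points are deletion minus wild type, grey bars its range over the 4 pairings of arrays, and open symbols the difference between replicates of a genotype; in the lowest lists the replicate differences reach 0.32, as wide as many of the differences between genotypes.

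The transcription factors MBF and SBF switch on genes late in G1 of the cell cycle. With bulk RNA, fewer cells in a phase and less RNA per cell cannot be told apart. Of 25 MBF and SBF targets, 3 fell and 0 rose, where 1.28% of all probe sets fell and 0.661% rose. In 21 the mean was lower in the deletion (median −0.32). At an unadjusted p under 0.05 (limma), 16 were lower and 0 higher, where 12.6% and 8.99% of all probe sets were. HO, the mating-type switching endonuclease, had signals of 7.52 and 7.28 in the deletion and of 9.47 and 9.10 in the wild type. PCL1, a cyclin of the Pho85 kinase, had 7.04 and 6.49 against 8.92 and 8.22, and RNR1, the large subunit of ribonucleotide reductase, had 9.73 and 9.23 against 10.81 and 10.62. For PCL1 and RNR1 the replicates lay farther apart, although the genotypes did not overlap. Other G1 cyclins and S phase cyclins did not pass: CLN1 differed by −0.60, CLN2 by −0.63, CLB5 by −0.31 and CLB6 by −0.65 (adjusted p from 0.0795 to 0.226). The G1 cyclin CLN3, which acts before them, differed by 0.31 (adjusted p = 0.116). Over the 4 pairings the median of the targets ran from −0.55 to −0.17. With wild type replicate 1 left out only HO of the 25 fell, and PCL1 and RNR1 had adjusted p of 0.0945 and 0.130.

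The CLB2 cluster of mitotic genes held no called gene among 12 and had a median of −0.23, with 5 lower at an unadjusted p under 0.05 (12.6% of all probe sets). Its largest difference was that of the mitotic cyclin CLB1, at 10.06 and 9.94 in the deletion against 11.14 and 10.69 (−0.92, adjusted p = 0.0587).

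The machinery of replication and of the chromosome held no called gene in 25 genes of origins and helicase loading (median −0.060), 22 of replicative polymerases and clamp (−0.053), 14 of cohesin and condensin (−0.14), 18 of tubulin, kinesins and spindle poles (−0.14), 16 of septins and bud sites (−0.066) or 11 of telomerase and telomere capping (0.0078). At an unadjusted p under 0.05 (limma), 4, 7, 7, 6, 2 and 0 of these genes were lower, in that order, where 12.6% of all probe sets were. Only the list of septins and bud sites held a gene that was higher, 1 of 16, where 8.99% of all probe sets were. Of 29 genes of the actin cytoskeleton only SCP1 was called, as a fall, where 1.28% of all probe sets fell. The median of that list was −0.0032. Named after their values were seen, CBF2, an inner kinetochore protein, fell by 0.45 and KIN4, a kinase of the spindle position checkpoint, by 0.50. Both calls were lost without wild type replicate 1 (adjusted p = 0.129 and 0.106) and without fun30 deletion replicate 2 (adjusted p = 0.135 and 0.0589).

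Of 96 genes of mating and meiosis 8 rose and 3 fell (8.33% and 3.12%), where 0.661% of all probe sets rose and 1.28% fell. In middle and late sporulation, which builds the spore wall and is not under way in haploid cells, 4 of 25 genes rose and 1 fell (median 0.14). DIT1, for dityrosine synthesis, had signals of 7.87 and 7.83 in the deletion and of 6.66 and 6.70 in the wild type. SPR3, a septin of sporulation, had 8.36 and 8.53 against 7.24 and 7.35. GAS4, a glucanosyltransferase of the spore wall, had 6.17 and 6.28 against 5.04 and 5.19, with the wild type below background, a difference of at least 0.99 (log2) above that level. SPO1, a phospholipase relative, had 8.22 and 8.32 against 7.51 and 7.62. SSP1, of the growing prospore membrane, went the other way with 6.66 and 6.68 against 7.44 and 7.47. DIT2, which works with DIT1, lay below background on all 4 arrays and did not pass (adjusted p = 0.315), nor did the activator of these genes, NDT80, at 8.27 and 8.26 against 7.91 and 8.11 (adjusted p = 0.185). In early meiosis 1 of 28 genes rose, the kinase gene IME2, with 8.93 and 9.04 against 8.33 and 8.39, while IME1, its activator, did not pass (0.20, adjusted p = 0.387). Leaving out wild type replicate 1 lost the calls of SPO1 (adjusted p = 0.0551) and IME2 (adjusted p = 0.0786).

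In the pheromone response 2 of 32 genes rose and 2 fell, where 0.661% of all probe sets rose and 1.28% fell. The median of the list was 0.011. FAR1, a cyclin-kinase inhibitor needed for the pheromone arrest, had 8.97 and 8.59 in the deletion against 10.16 and 9.92. PRM7, a pheromone-regulated membrane protein gene, had 7.62 and 7.27 against 8.55 and 8.29, and its other probe set (−0.75) did not pass (adjusted p = 0.0819). The rises were PRM9, with 9.39 and 9.35 against 8.57 and 8.59, and PRM5, with 11.52 and 11.48 against 10.97 and 10.86. STE3, the receptor for a-factor, rose as 1 of 4 alpha-specific genes, with 8.25 and 8.33 against 7.78 and 7.84. None of 7 a-specific genes passed, although all 7 had a lower mean (median −0.21) and 3 were lower at an unadjusted p under 0.05 (12.6% of all probe sets). Leaving out wild type replicate 1 lost the calls of FAR1, PRM7 and STE3 (adjusted p = 0.0805, 0.124 and 0.110), and STE3 was not called without fun30 deletion replicate 2 either (adjusted p = 0.103).

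Of 186 carbon and energy genes, 2 rose and 2 fell (1.08% each way), where 0.661% of all probe sets rose and 1.28% fell. In galactose, maltose and sucrose use 1 of 16 genes rose, 14 had a higher mean and the median of 0.29 was the highest of all lists. At an unadjusted p under 0.05 (limma), 10 of the 16 were higher and 0 lower, where 8.99% and 12.6% of all probe sets were. GAL3, the galactose sensor, had 8.38 and 8.53 in the deletion against 7.71 and 7.85. The galactose permease GAL2 differed by 0.36 and the maltose permease MAL31 by 0.45 (adjusted p = 0.0778 and 0.120). Among hexose transporters, a list outside these 186, HXT2 was the 1 of 14 that rose, with 13.38 and 13.56 against 12.86 and 12.82, and HXT1, a transporter for high glucose, differed by −0.59 (adjusted p = 0.0666). ADH2, the ethanol-consuming alcohol dehydrogenase, rose with 8.43 and 8.40 against 7.82 and 7.96. In the same list of 18 alcohol and aldehyde dehydrogenases AAD3 and ADH7 fell, by 0.60 and 0.48. The called probe set of AAD3 can cross-hybridise. For trehalose and glycogen 17 of 18 genes had a higher mean (median 0.18), none passed and 3 were higher at an unadjusted p under 0.05 (8.99% of all probe sets). In that list wild type replicate 1 lay 0.19 below replicate 2, and without it the median was 0.064. The median of the sugar list without it was 0.17, and the calls of GAL3, HXT2, ADH2, AAD3 and ADH7 were lost, with adjusted p from 0.0852 to 0.110. ADH7 was not called without fun30 deletion replicate 2 either (adjusted p = 0.0914). No gene passed in glycolysis and gluconeogenesis (18 genes, median 0.024), the citric acid cycle (21, 0.043), the pentose phosphate pathway (18, −0.055), mitochondrial import (29, −0.088) or ubiquinone and haem synthesis (18, 0.040).

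In transport of metals and phosphate a few genes passed, where 0.661% of all probe sets rose and 1.28% fell. HMX1, a haem oxygenase, rose with 10.55 and 10.42 in the deletion against 9.88 and 9.63, while FRE1, a reductase of iron and copper, fell with 8.89 and 9.11 against 10.05 and 9.80. They were the only called genes of 25 in the iron regulon, whose median was −0.012. At an unadjusted p under 0.05 (limma), 7 of the 25 were higher and 5 lower, where 8.99% and 12.6% of all probe sets were. In the phosphate regulon 2 of 19 genes rose and 1 fell, and 3 were higher and 3 lower at an unadjusted p under 0.05 (limma). PHO89, a sodium-phosphate cotransporter, had 7.46 and 7.43 against 6.76 on both wild-type arrays. SPL2, a mediator of phosphate transporter choice, had 7.91 and 7.87 against 7.28 and 7.45. The acid phosphatase PHO11 fell, with 8.17 and 8.34 against 8.76 and 8.83, on a probe set that can cross-hybridise. No drug resistance gene (22 measured, median 0.055) and no gene of the osmotic stress pathway (20, 0.047) passed. The calls of FRE1, SPL2 and PHO11 were lost without wild type replicate 1 (adjusted p = 0.0795, 0.107 and 0.110). Further losses were, without fun30 deletion replicate 2 that of SPL2 (adjusted p = 0.0526) and, without wild type replicate 2, that of PHO11 (adjusted p = 0.0561).

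In sulphate assimilation and methionine, MET17 and MET28 were the called genes of 29, both higher in the deletion, where 0.661% of all probe sets rose. BY4741 is known to lack MET17, so its value marks a difference between the strains against their labels and is not read as a change of the pathway. MET17 encodes the enzyme that makes homocysteine from sulphide, and MET28, a cofactor of its activator Met4, had 9.55 and 9.44 against 9.01 and 9.03. The list's median was 0.022, and no other of its genes passed. The call of MET28 was lost without wild type replicate 1 or fun30 deletion replicate 1 (adjusted p = 0.123 and 0.0638). Synthesis of other amino acids held no called gene: branched-chain (13 genes, median −0.19), histidine (7, −0.11), aromatic (14, −0.12), lysine (8, −0.11), arginine (13, −0.058) and serine, glycine and one-carbon (12, −0.11). None passed among nitrogen catabolite repressed genes (27, −0.049), amino acid and peptide permeases (24, −0.046) or pyrimidine synthesis (15, −0.11). Thiamine and vitamin B6 (16, 0.11) and biotin and NAD synthesis (18, −0.027) held no called gene either. In purine synthesis 1 of 13 genes fell, IMD2, on a probe set that can cross-hybridise, where 1.28% of all probe sets fell.

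At the cell surface, TIR1, a cell wall mannoprotein of cold and low oxygen, rose with 9.97 and 9.92 in the deletion against 9.42 and 9.29. It was the 1 of 20 structural cell wall genes that did, where 0.661% of all probe sets rose. None of 16 genes of the cell wall integrity pathway passed, although 13 had a higher mean (median 0.13), and none of 9 flocculins and agglutinins. At an unadjusted p under 0.05 (limma), 6 of the 20, 5 of the 16 and 3 of the 9 were higher, where 8.99% of all probe sets were. At that level 1 of the 9 was lower and 0 of the other lists, where 12.6% of all probe sets were. Named after their values were seen, BIG1, for beta-glucan of the wall, fell with 8.76 and 8.77 against 9.64 and 9.70, and PTP3, a tyrosine phosphatase of MAP kinases, fell with 7.27 and 7.29 against 8.10 and 8.21. Both kept their calls whichever array was left out.

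Lists of general machinery held no calls. Over all 59 lists without a call, 61 of 1202 genes were higher and 125 lower at an unadjusted p under 0.05 (limma), where 8.99% and 12.6% of all probe sets were. The 6 lists of RNA polymerase II, general transcription factors, splicing, mRNA 3′ ends, mRNA decay and nuclear transport held 139 genes. None was called in limma and the median was −0.0095, with 4 higher and 14 lower at an unadjusted p under 0.05. Nuclear transport had the lowest median of these lists, −0.18. Of its 15 genes 13 had a lower mean, and 6 were lower at that level. The 10 lists on the fate of proteins held 198 genes with no call and a median of −0.0083. At that level 10 were higher and 9 lower. Among these lists were the proteasome (33 genes, median 0.011), ER folding (17, 0.038), the vacuolar ATPase (18, −0.053) and autophagy (29, 0.10). Of the 29 autophagy genes 25 had a higher mean, and 7 were higher and 1 lower at that level. In the 5 lipid lists, with 89 genes, no gene other than INO2 was called, where 1.94% of all probe sets were. Their medians were −0.096 for fatty acid synthesis (10 genes), −0.046 for sphingolipids (24), 0.15 for peroxisomal oxidation (12) and 0.057 for peroxins (24), with that of phospholipid synthesis given above. A list without a call is not shown to be unchanged, since 2 arrays of each genotype limit the size that can pass, and the smallest call was a difference of 0.40.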

How the data were processed

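Each probe set has 1 log2 signal per array, deposited by the authors. The submitters' processing notes name RMA, a method of background correction, quantile normalization and probe summary, and limma, with no version or model stated. Quantile normalization gives all arrays about the same distribution and so hides any general rise or fall of RNA. Array medians of the tested probe sets were 10.59 to 10.61. Of 10928 probe sets, 5498 name 1 gene of the RefSeq table (assembly R64), which gave gene names and order. The array table names no build, and no coordinates are given.

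The deletion was compared with the wild type with limma 3.58.1 in R 4.3.3, 2 arrays against 2, 2-sided, with genotype alone and Benjamini-Hochberg adjustment over all 5498 probe sets (2 residual and 3.23 prior degrees of freedom). The procedure was tested on simulated data with independent noise, which held no shift shared by the genes of an array and so does not cover such shifts. Probe sets of a gene were averaged for medians. Lists were described without a test. Python 3.11.15, pandas 2.3.3 and matplotlib 3.10.9 did the rest. Named genes were the 15 largest rises and falls, list members (up to 4 called, or up to 2 where none was) and markers, except where the text says otherwise. Neighbours, family members and regulators of such genes were added as context. Members, lists and rules were chosen with earlier results of these data known. Promoter sequences were not analysed here, and 1 planned gene list is not reported here. The 2 integration arrays were not used.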

Additional observations from a re-analysis of the deposited data

How the results depend on the processing

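The counts were 36 rises and 70 falls. With 1 array left out they ranged from 15 to 155 rises and from 22 to 306 falls, where the lone array of a genotype is assumed to vary like the other pair. With FUN30 and the run left out of the fit there were 23 and 44. At an adjusted p under 0.01 there were 6 and 12. With a minimum of 1.5-fold there were 20 and 55. Under the other alternatives both counts stayed within 1.5 times: quantile normalization again, array medians set equal, dim or cross-hybridising probe sets left out, a variance trend and a robust prior. Of 52 named calls none changed sign. The calls lost were 25 without wild type replicate 1, 15 without FUN30 and the run, and at most 3 under any other alternative at the 0.05 threshold. The genotypes share replicate numbers, which no label ties to a batch. With the number as a replicate block there were 226 rises and 522 falls. Across probe sets the replicate differences of the genotypes correlated with r = 0.26, a hint only, as 2 pairs cannot show pairing.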

Other observations

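The 10 largest differences that did not pass were all lower in the deletion, and in all 10 the genotypes did not overlap. The largest was NSR1, a nucleolin-like protein of pre-rRNA processing, with log2 signals of 10.78 and 10.03 in the deletion and of 12.22 and 11.81 in the wild type (difference −1.61 ± 0.27 SE, adjusted p = 0.0582, limma). Others with a known part in ribosome assembly were REI1 (−1.22), UTP18 (−1.19), CGR1 (−1.16), SPB1 (−1.15), RSA4 (−1.11), REX4 (−1.09) and ARX1 (−1.01), with adjusted p from 0.0606 to 0.106 (limma). SFG1, a putative regulator of filamentous growth, differed by −1.29 (adjusted p = 0.0869, limma), and the uncharacterised YOL014W by −1.43 (adjusted p = 0.0560, limma). In UTP18 the deletion arrays had 7.60 and 7.14 and the wild-type arrays 8.80 and 8.33.

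ORFs with only a systematic name were called at 0.994% up (5 of 503) and 2.39% down (12 of 503), and named genes at 0.627% and 1.17%. The transposon ORF YBL100W-B rose by 0.40 on a probe set that can cross-hybridise between copies, the smallest call of all; it was lost in each of the 4 fits with 1 array left out, with adjusted p from 0.0516 to 0.183 (limma).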
